A study of Mus musculus with 16 samples.

Results

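This account compares splenic germinal centre B cells of the CD69-low light zone gate (Fraction 3, 3 libraries) with the whole light zone gate (LZ, 3 libraries). The 6 libraries were taken by their gate out of 16 in the series. Of 23234 named genes, the 11266 with at least 1 FPKM (fragments mapped to a gene, scaled by its length and by the library total) in at least 2 of the 16 libraries were tested. All cells came from C57BL/6 donor B cells of the genotype Bcl6-YFP(KI/+) B1-8hi(KI/+), which carry a yellow fluorescent reporter in the Bcl6 gene and a knocked-in heavy chain that binds the hapten NP. Naive donor cells were moved into wild-type CD45.1+ mice, which received NP-CGG/alum i.p., and spleens of 9 recipients were pooled for sorting on day 10. Both gates held CD45.2+ NP+ CD138- IgG1+ CD38- CD86hi CXCR4lo cells. Fraction 3 was in addition Bcl6-YFPhi and CD69lo, and its cells carry the label light zone cells under selection. Fraction 2, the CD69hi and Bcl6-YFPhi counterpart with the label recycling-prone (2 libraries), is given beside them where it shows where the whole gate lies.

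The LZ gate set no limit on CD69 or Bcl6-YFP, so it also takes in cells of the Fraction 3 and Fraction 2 type, and a difference between Fraction 3 and LZ is one between a subset and the population that contains it. No label states that the libraries of a gate are from separate pools of mice, and every p-value below reflects the spread among libraries alone, part or all of which may be technical.

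In the light zone, germinal centre B cells take up antigen from follicular dendritic cells and present it to follicular helper T cells. CD40 and B cell receptor signals from these contacts switch on NF-kB targets and, in a minority of cells, Myc and cyclin D2, which precede return to the dark zone for division. CD69 is a surface protein that appears soon after such stimulation, and Bcl6 is the transcription factor that holds B cells in the germinal centre state.

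The genes behind the gates were checked first. Cd69 had 11.5, 9.49 and 14.4 FPKM in the Fraction 3 libraries, against 13.1, 13.5 and 12.7 FPKM in the LZ libraries, and the groups overlapped (log2 change -0.16, adjusted p = 0.799 by limma). The gate was set on the protein, and the mRNA did not separate it. Bcl6 had 174, 182 and 205 FPKM in Fraction 3, against 162, 155 and 177 FPKM in LZ, also with overlap (adjusted p = 0.696). Cd86 (log2 change 0.0087), Cxcr4 (0.21), Cd38 (-0.11), Ptprc (0.07) and Efnb1 (0.23), which encodes an ephrin ligand used in the memory gates, did not pass the test either, with limma adjusted p-values of 0.991, 0.745, 0.845, 0.870 and 0.599. Sdc1, which encodes the plasma cell protein CD138, did not exceed 0.151 FPKM in any of the 6 libraries. The germinal centre label held in both gates: Gm600, a nuclear GTPase of germinal centres now named Nuggc, ranged over 108 to 125 FPKM in Fraction 3 and 86.3 to 104 FPKM in LZ.

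Of the 4 genes given as markers of the CD69-low against the CD69-high gate, Ccnd2 and Batf were lower in Fraction 3 than in LZ past the test and are described below. Myc, the growth transcription factor, had 25.1, 26.9 and 21.1 FPKM in Fraction 3, 54.6 and 45.4 FPKM in Fraction 2 and 40.0, 31.6 and 34.2 FPKM in LZ. Every Fraction 3 library lay below every LZ library, yet the log2 change of -0.52 ± 0.12 (SE) did not pass (limma adjusted p = 0.180). S1pr2, a receptor that keeps B cells in the germinal centre, had 166, 150.5 and 179 FPKM in Fraction 3, 123 and 112 FPKM in Fraction 2 and 140.2, 129 and 150.2 FPKM in LZ. Its 95% interval of the log2 change was 0.033 to 0.44, with an adjusted p of 0.546 from limma.

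In the 6 libraries the FPKM summed to between 464568 and 492578, with 10133 to 10244 genes at 1 FPKM or more. Depth relative to LZ library 1, estimated from the step size of low FPKM values, was between 0.927 and 1.14, and absolute depth is unknown. Markers of other cells were compared as summed FPKM. The 7 T cell markers found summed to 26.05 to 36.94 in Fraction 3 and 29.54 to 36.14 in LZ, almost all of it Lck, which germinal centre B cells also express, with Cd3d at or below 0.611 in each library. The 7 macrophage markers summed to 0.198 to 3.47 in Fraction 3 and 0.371 to 2.81 in LZ, with C1qa and C1qb at 0. The 4 neutrophil markers found summed to 0.401 to 26.2 in Fraction 3 and 0.736 to 19.2 in LZ, from S100a8 and S100a9, with Elane and Mpo at 0. The 4 erythroid markers summed to 30.8 to 38.9 in Fraction 3 and 27.0 to 54.9 in LZ. The 4 dendritic cell markers summed to 21.2 to 28.5 in Fraction 3 and 18.7 to 30.5 in LZ, mostly Flt3, with Xcr1 up to 1.07. The 5 found of follicular dendritic cells and stroma summed to 74.1 to 88.4 in Fraction 3 and 72.4 to 84.6 in LZ, mostly Cr2 and Pecam1, which B cells also express, with Cxcl13, Pdpn and Col1a2 at 0. Platelet markers did not exceed 0.436 and NK cell markers 0.908. The 5 plasma cell markers summed to 421 to 497 in Fraction 3 and 389 to 458 in LZ, mostly 2010001M09Rik, now named Mzb1, and Igj. Among them Sdc1 did not exceed 0.151 and Prdm1 0.772 in the 6 libraries. The 4 markers of naive and marginal zone B cells, mostly Fcer2a, summed to 289 to 347.8 in Fraction 3 and 347.5 to 362 in LZ, a narrow overlap. Fcer2a is also a member of the light zone list used below.

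Few genes separated the CD69-low gate from the whole light zone, and in the fit to all 16 libraries nearly all of them were lower in it. limma called 14 of the 11266 genes (0.124%) at an adjusted p below 0.05, 13 of them lower in Fraction 3 (0.115%) and 1 higher (0.00888%). Only 5 of the 14 changed by more than 2-fold on the log2(FPKM + 1) scale (0.0444% of genes tested). The 14 genes had no overlap between the Fraction 3 and LZ libraries, which was true of 1696 genes (15.1%) in all, 775 with Fraction 3 higher (6.88%) and 921 with it lower (8.18%). The median log2 change over all tested genes was -0.0039, and at an unadjusted p below 0.05 there were 302 genes higher (2.68%) and 612 lower (5.43%). The count depended on single libraries: it was 4 without LZ library 1, 5 without LZ library 2, 8 without Fraction 3 library 2 and 4 without Fraction 3 library 3. Fitting these 6 libraries alone gave 4, as many higher as lower, and lost 12 of the 13 calls reported here. In bulk RNA, fewer cells with a transcript and less of it per cell cannot be told apart, here and below. Small RNAs made up 90 of the 105 tested genes with a change above 2-fold in either direction, and the 185 small RNAs tested had a median standard error of 1.71 against 0.119 over all genes.

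**Figure D1:**
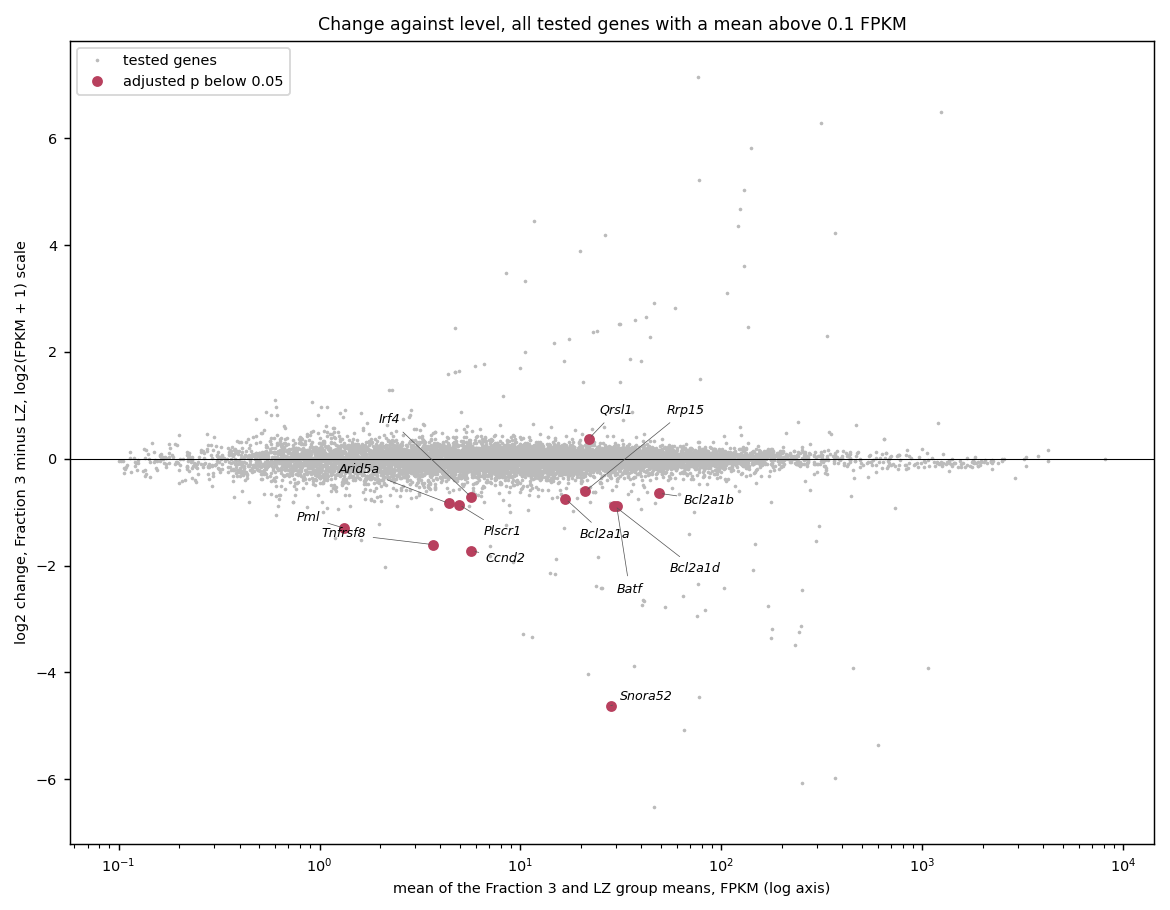
Log2 change of Fraction 3 minus LZ against the mean FPKM of both gates on a log axis, 1 point per tested gene with a mean above 0.1 FPKM, with 13 genes past adjusted p 0.05 in red. Most genes lie close to 0, the red points lie below 0 apart from Qrsl1, and the scattered points far from 0 are mostly small RNAs.

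Ccnd2, Tnfrsf8, Batf, Irf4, Plscr1 and Arid5a were among the called genes that fell. Ccnd2, which encodes cyclin D2 and drives entry into the cell cycle, had 2.16, 2.42 and 1.79 FPKM in Fraction 3, 11.5 and 11.0 FPKM in Fraction 2 and 10.4, 8.53 and 8.98 FPKM in LZ. The Fraction 3 libraries formed a narrow low set, and LZ lay just under Fraction 2. The log2 change against LZ was -1.72 ± 0.15 (SE), with a limma adjusted p of 0.000389, and it was the only one of the called genes reported here that kept its call under every alternative tried. Its annotated exons overlap antisense genes, 9330179D12Rik and Gm43126, which unstranded reads cannot separate from it.

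Tnfrsf8, the NF-kB-linked receptor CD30 of the TNF receptor family, had 2.08, 0.997 and 0.986 FPKM in Fraction 3, 10.8 and 9.13 FPKM in Fraction 2 and 6.18, 5.74 and 6.13 FPKM in LZ, a log2 change against LZ of -1.61 ± 0.25 (SE) with a limma adjusted p of 0.0228. Batf, a transcription factor of the AP-1 family that is needed for class switching, had 19.7, 22.4 and 20.3 FPKM in Fraction 3, 56.2 and 48.1 FPKM in Fraction 2 and 44.0, 37.3 and 37.1 FPKM in LZ, a log2 change of -0.89 ± 0.12 (SE) with an adjusted p of 0.0106 from limma. For both genes the order was Fraction 3 lowest, LZ between and Fraction 2 highest, without overlap. Tnfrsf8 kept its call when Fraction 3 library 1 was left out (adjusted p = 0.0165) and missed it without any other library of the 6, with limma adjusted p between 0.0615 and 0.156. Batf missed it without LZ library 1 (limma adjusted p = 0.0785) or Fraction 3 library 3 (0.0845) and kept it without the others.

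Irf4, a transcription factor dosed by receptor signal strength and required for plasma cells, had 3.94, 4.07 and 4.08 FPKM in Fraction 3, 8.90 and 8.15 FPKM in Fraction 2 and 8.80, 7.14 and 6.05 FPKM in LZ (log2 change -0.72 ± 0.11, SE, limma adjusted p = 0.0217). Plscr1, a membrane phospholipid scramblase, had 3.20, 3.14 and 3.27 FPKM in Fraction 3, 7.41 and 9.71 FPKM in Fraction 2 and 7.41, 7.29 and 5.30 FPKM in LZ (log2 change -0.86 ± 0.13, SE, limma adjusted p = 0.0254). Arid5a, an RNA-binding protein that stabilises Il6 mRNA in mouse macrophages, had 3.25, 3.10 and 2.27 FPKM in Fraction 3, 9.50 and 9.12 FPKM in Fraction 2 and 7.50, 5.44 and 4.91 FPKM in LZ (log2 change -0.84 ± 0.14, SE, limma adjusted p = 0.0448). Fraction 3 lay below LZ without overlap in each of these genes, and LZ library 1 was the highest of its gate each time. Without LZ library 3 the calls held, at limma adjusted p of 0.00532 for Irf4, 0.00877 for Plscr1 and 0.0230 for Arid5a. Without any other library of the 6 they did not, at limma adjusted p of 0.0572 to 0.106 for Irf4, 0.0616 to 0.164 for Plscr1 and 0.0572 to 0.243 for Arid5a.

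Survival genes of the Bcl2a1 family, which encode the NF-kB-induced BCL2 relative A1, made up 3 of the 14 calls. Their promoters are shown because the copies are nearly identical, with Tnfrsf8 as the unrelated called gene that also holds letters like the AP-1 motif. Each runs from 250 bases before to 50 after the annotated start in RefSeq for GRCm38.p6, and capitals mark the AP-1-like letters TGANTCA, searched on both strands. The AP-1 consensus is TGACTCA, or TGAGTCA on the other strand. The regions are chr9:88956670-88956969 (plus strand) for Bcl2a1a, chr9:89199023-89199322 (plus strand) for Bcl2a1b, chr9:88731801-88732100 (minus strand) for Bcl2a1d and chr4:145315115-145315414 (minus strand) for Tnfrsf8.
Bcl2a1a: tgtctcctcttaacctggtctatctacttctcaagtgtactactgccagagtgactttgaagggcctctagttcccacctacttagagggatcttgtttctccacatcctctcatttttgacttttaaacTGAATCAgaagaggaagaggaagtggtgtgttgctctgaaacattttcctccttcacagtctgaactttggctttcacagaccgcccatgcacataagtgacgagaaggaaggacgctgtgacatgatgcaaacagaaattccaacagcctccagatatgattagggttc
Bcl2a1b: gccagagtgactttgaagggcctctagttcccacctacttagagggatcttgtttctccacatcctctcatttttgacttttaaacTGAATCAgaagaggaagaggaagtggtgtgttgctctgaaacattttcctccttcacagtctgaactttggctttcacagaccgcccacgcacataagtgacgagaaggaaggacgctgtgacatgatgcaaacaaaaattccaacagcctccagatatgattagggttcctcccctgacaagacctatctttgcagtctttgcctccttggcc
Bcl2a1d: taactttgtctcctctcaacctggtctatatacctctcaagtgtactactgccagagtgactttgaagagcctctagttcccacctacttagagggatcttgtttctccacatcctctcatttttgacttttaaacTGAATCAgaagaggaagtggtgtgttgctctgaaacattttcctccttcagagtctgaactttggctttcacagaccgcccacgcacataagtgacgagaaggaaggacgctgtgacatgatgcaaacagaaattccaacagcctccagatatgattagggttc
Tnfrsf8: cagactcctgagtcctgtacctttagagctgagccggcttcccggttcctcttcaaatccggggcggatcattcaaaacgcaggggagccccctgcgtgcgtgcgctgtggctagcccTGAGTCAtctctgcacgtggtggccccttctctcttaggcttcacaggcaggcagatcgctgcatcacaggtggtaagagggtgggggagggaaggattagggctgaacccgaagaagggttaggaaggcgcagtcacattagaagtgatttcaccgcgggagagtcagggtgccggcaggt

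Where they align, the Bcl2a1 promoters were 99.2% identical between Bcl2a1a and Bcl2a1b, 96% between Bcl2a1a and Bcl2a1d and 96.5% between Bcl2a1b and Bcl2a1d. The letters TGANTCA were found in 4 of the 11 called genes that the RefSeq table holds, and in 7.81% of its 32851 promoters. The consensus itself was found only in Tnfrsf8 among the 11, and in 5.2% of all promoters, while the Bcl2a1 copies hold TGAATCA. Since 3 of those 4 are copies of one another, they are not separate observations. In Tnfrsf8 the match began at position -132 from the start, and an E-box of the form CACGTG followed at -119. It was the only CACGTG among the 11 genes, against 7.15% of all promoters, and other forms of the E-box were not searched for. In the Bcl2a1 copies the AP-1-like match began at -120 in Bcl2a1a, -164 in Bcl2a1b and -114 in Bcl2a1d. A match is a description of the letters and not a binding site.

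Bcl2a1a had 12.5, 11.5 and 12.8 FPKM in Fraction 3, 29.3 and 25.0 FPKM in Fraction 2 and 21.1, 22.1 and 20.4 FPKM in LZ. Bcl2a1d had 18.8, 20.5 and 21.8 FPKM in Fraction 3, 53.6 and 42.9 FPKM in Fraction 2 and 35.5, 41.5 and 37.8 FPKM in LZ. Bcl2a1b had 32.8, 41.9 and 39.0 FPKM in Fraction 3, 79.9 and 78.0 FPKM in Fraction 2 and 59.5, 64.5 and 55.0 FPKM in LZ. All 3 copies stood in one order, with Fraction 3 lowest, LZ between and Fraction 2 highest, and no library overlapped between gates. The log2 changes against LZ were -0.75 ± 0.087 for Bcl2a1a, -0.88 ± 0.11 for Bcl2a1d and -0.65 ± 0.098 for Bcl2a1b (SE), with limma adjusted p of 0.00319, 0.00335 and 0.0220. The calls of Bcl2a1a and Bcl2a1d held without any 1 of the 6 libraries. The call of Bcl2a1b held without LZ library 3 or Fraction 3 library 2 and missed the threshold without LZ library 1 or 2 or Fraction 3 library 1 or 3, at limma adjusted p between 0.0572 and 0.132. Reads of these copies may have been shared among them in the authors' counting, so they are uncertain as separate results, and Bcl2a1b also overlaps exons of Gm29094.

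Rrp15, a nucleolar protein of large ribosomal subunit assembly, was a called gene with a role in ribosome production. It had 17.2, 17.8 and 14.2 FPKM in Fraction 3, 33.5 and 37.7 FPKM in Fraction 2 and 26.0, 26.7 and 23.9 FPKM in LZ, a log2 change of -0.61 ± 0.093 (SE) with a limma adjusted p of 0.0220. Again no library overlapped between gates and LZ lay between the CD69-low and CD69-high gates. The call was lost without LZ library 1 (limma adjusted p = 0.132), LZ library 2 (0.0944) or Fraction 3 library 3 (0.110).

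**Figure D2:**
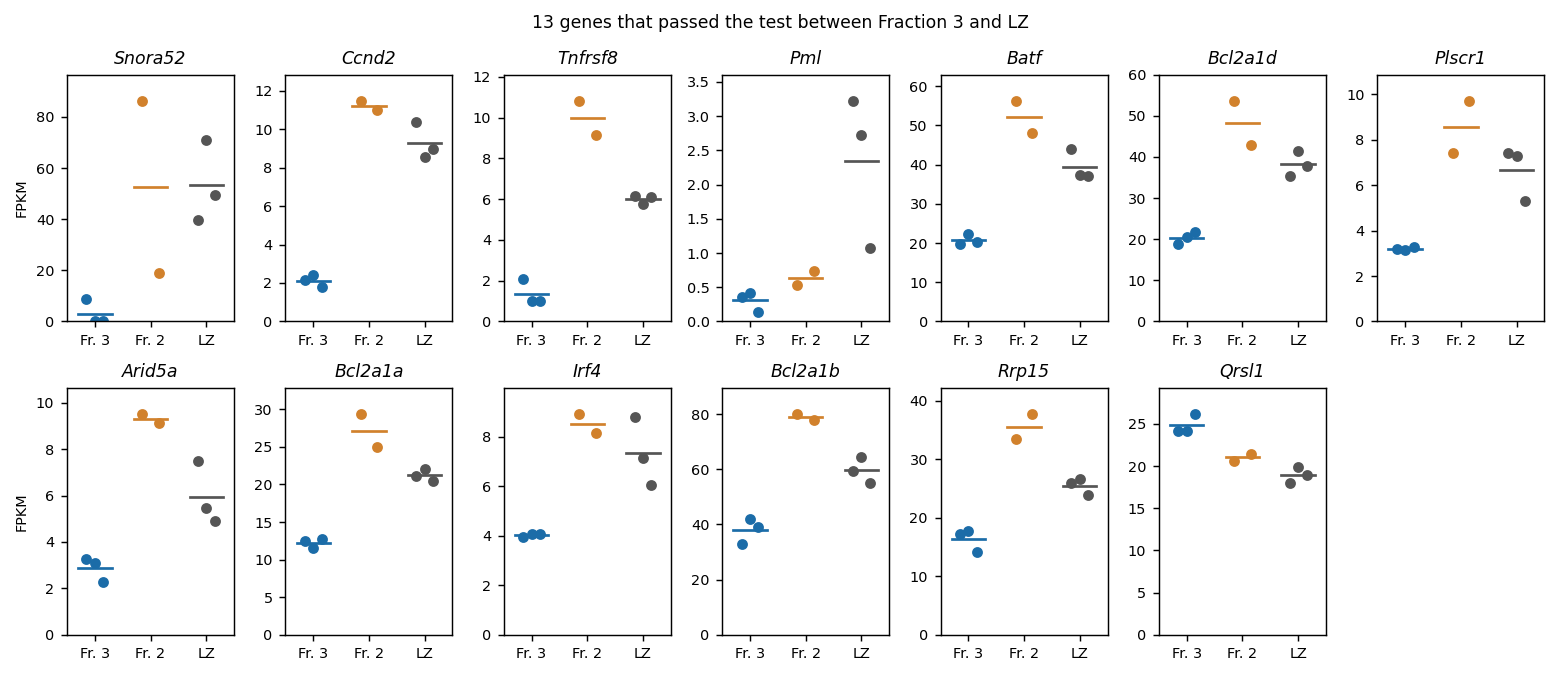
FPKM of 13 called genes, 1 panel per gene with its own axis from 0, with 1 point per library and a bar at the mean of Fraction 3, Fraction 2 and LZ. In most panels LZ stands between Fraction 3 and Fraction 2, while in the panel of Pml both fractions lie below 1 FPKM and LZ alone is higher.

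Pml showed another pattern, low in both CD69 gates and higher in LZ. Pml, the organiser of PML nuclear bodies, had 0.364, 0.423 and 0.134 FPKM in Fraction 3, 0.527 and 0.737 FPKM in Fraction 2 and 3.22, 2.73 and 1.08 FPKM in LZ. Its log2 change was -1.30 ± 0.23 (SE) with a limma adjusted p of 0.0492, and LZ library 3 was the lowest of its gate. Every library of both CD69 gates lay below every LZ library. Without LZ library 3 the adjusted p was 0.00201, and without any other library of the 6 the call was lost, at limma adjusted p between 0.0893 and 0.284. In the mature memory gate, the CD38+ GL7- Fraction 7, it averaged 110.4 ± 12.9 FPKM (SD, n = 3). Its exons overlap the microRNA gene Mir6385 on the other strand.

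Migration receptors of memory B cells shown with it in the plot of the 6 gates did not pass the test. S1pr1, the receptor for egress into blood, had 1.70, 2.15 and 1.22 FPKM in Fraction 3, 0.963 and 1.31 FPKM in Fraction 2 and 3.92, 2.83 and 3.32 FPKM in LZ (limma adjusted p = 0.197). Gpr183, which guides B cells to the outer follicle, had 4.78, 3.61 and 5.37 FPKM in Fraction 3, 7.45 and 7.02 FPKM in Fraction 2 and 10.1, 6.92 and 7.41 FPKM in LZ (limma adjusted p = 0.0815). Ccr6, the receptor for CCL20, had 6.75, 9.24 and 8.20 FPKM in Fraction 3, 10.5 and 8.20 FPKM in Fraction 2 and 11.8, 13.6 and 11.4 FPKM in LZ (limma adjusted p = 0.178). Each had its Fraction 3 libraries below its LZ libraries, as had 8.18% of all genes, with log2 changes of -0.70, -0.71 and -0.55. Other members of the lists used below went the other way. In the migration list 5 of 22 tested genes were higher and 5 lower in Fraction 3 without overlap. In the memory list 2 of 26 were higher and 7 lower without overlap. The shares over all genes were 6.88% and 8.18%. Klf2, the transcription factor that drives S1pr1, had 16.9, 13.9 and 19.3 FPKM in Fraction 3 and 26.9, 18.9 and 24.4 FPKM in LZ, with overlap (limma adjusted p = 0.473).

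To describe this pattern beyond Pml, 24 genes were taken that had at least 20 FPKM in every Fraction 7 library and under 2 FPKM in both Fraction 2 libraries, a rule set after values had been seen. It uses neither Fraction 3 nor LZ values, although Pml is itself among the 24. Their summed FPKM were 18.8, 15.7 and 17.9 in the Fraction 3 libraries, 14.3 and 17.1 in the Fraction 2 libraries and 40.4, 37.1 and 26.3 in the LZ libraries. The rule itself fixes the low sum in Fraction 2 and the high one in Fraction 7, and the sums in Fraction 3 and LZ are a description with no test. Without Pml they were 18.4, 15.3 and 17.8 in Fraction 3 and 37.2, 34.3 and 25.3 in LZ. Of the 24 genes, 5 stayed below 1 FPKM in all Fraction 3 and LZ libraries, and 9 reached 1 FPKM in fewer than 2 of these 6 and entered the test through other gates. There were 21 lower, Pml included, and 3 higher in Fraction 3 than in LZ, where 51.1% of all genes were lower, and 1 (Pml) was called. As the rule was set after values had been seen and members near 0 are counted, these counts are no test of the pattern. S100a10, a member of the S100 protein family, was listed at 0 in the Fraction 3 libraries and had 0 and 0.741 FPKM in Fraction 2 and 6.42, 6.01 and 0.310 FPKM in LZ (limma adjusted p = 0.319). Bhlhe41, a transcription factor of the basic helix-loop-helix family, was listed at 0 in the Fraction 3 and Fraction 2 libraries and had 2.19, 1.18 and 0.285 FPKM in LZ (limma adjusted p = 0.190). LZ library 3 was the lowest of its gate for both, and without it they passed, at limma adjusted p of 0.0151 for S100a10 and 0.0135 for Bhlhe41, which also passed with a pseudocount of 0.1 (0.0371). With any other of the 6 libraries left out neither passed, at limma adjusted p of up to 0.747 for S100a10 and 0.598 for Bhlhe41. The naive and marginal zone B cell markers summed to 289 to 347.8 FPKM in Fraction 3 and 347.5 to 362 FPKM in LZ. That sum is mostly Fcer2a, which is also a member of the light zone list, and the markers S1pr1 and Ccr7 are themselves among the 24 genes. A part of naive or marginal zone B cells in the pattern was not tested.

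**Figure D3:**
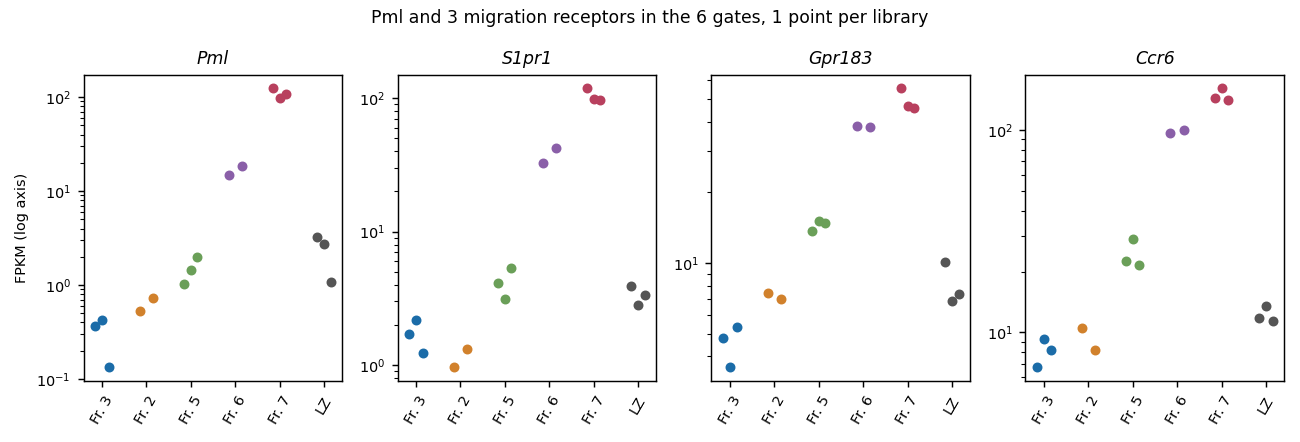
FPKM on a log axis of Pml, S1pr1, Gpr183 and Ccr6 in each library of Fractions 3, 2, 5, 6 and 7 and of LZ, 1 point per library. LZ lies above Fraction 3 in each panel and far below Fraction 7, and for Pml Fraction 3 is at 0.134 to 0.423 FPKM against 1.08 to 3.22 FPKM in LZ.

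Snora52 and Qrsl1 were called outside these groups. Snora52, a small nucleolar RNA that guides pseudouridylation of ribosomal RNA, had 8.91, 0 and 0 FPKM in Fraction 3, 86.2 and 18.8 FPKM in Fraction 2 and 39.8, 71.0 and 49.3 FPKM in LZ. Its log2 change of -4.62 ± 0.79 (SE) passed with a limma adjusted p of 0.0473, although it was listed at 0 in Fraction 3 libraries 2 and 3 and the Fraction 2 libraries differed widely. Without Fraction 3 library 1 the adjusted p was 0.00260, and without any other of the 6 libraries the call was lost, at limma adjusted p between 0.101 and 0.243. Snora52 lies on an annotated exon of Rplp2, a ribosomal protein gene with 1420, 1475 and 1638 FPKM in Fraction 3 and 1493, 1662 and 1724 FPKM in LZ (limma adjusted p = 0.845), so its reads cannot be told apart from those of its host.

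Qrsl1, a subunit of the mitochondrial glutaminyl-tRNA amidotransferase, was the only gene that rose. It had 24.2, 24.2 and 26.1 FPKM in Fraction 3, 20.6 and 21.4 FPKM in Fraction 2 and 18.0, 19.8 and 18.9 FPKM in LZ, a log2 change of 0.37 ± 0.063 (SE) with a limma adjusted p of 0.0448. Its call was lost whichever of the 6 libraries was left out, at limma adjusted p between 0.0696 and 0.284. Larger log2 changes above 0 that did not pass included those of Chchd5, a small mitochondrial protein, at 7.25, 8.02 and 7.61 FPKM in Fraction 3 and 4.08, 5.29 and 5.31 FPKM in LZ (limma adjusted p = 0.0920), and Ccrl1, an atypical receptor that scavenges CCL19 and CCL21, at 14.5, 13.6 and 15.97 FPKM in Fraction 3 and 10.4, 9.67 and 10.9 FPKM in LZ (limma adjusted p = 0.353).

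Gene lists, chosen with earlier results of these data known, gave the surrounding pathways. In the CD40 and NF-kB response list 6 of 29 tested genes fell (Bcl2a1a, Bcl2a1d, Batf, Irf4, Bcl2a1b and Tnfrsf8) and 0 rose, against 0.115% of all genes that fell, and the median log2 change was -0.34. At an unadjusted p below 0.05, 19 were lower and 0 higher, against 5.43% and 2.68% of all genes. Of the 6 called, 3 are the Bcl2a1 copies, which are uncertain as separate results. Cd40 itself, the receptor for T cell help, had 45.4, 50.6 and 48.8 FPKM in Fraction 3 and 64.2, 65.7 and 57.7 FPKM in LZ and did not pass (limma adjusted p = 0.189), nor did Birc3, an inhibitor of apoptosis induced by NF-kB, at 42.0, 52.0 and 41.8 FPKM in Fraction 3 and 60.5, 61.9 and 49.8 FPKM in LZ (limma adjusted p = 0.421). The light zone list overlaps this one, and 4 of its 23 genes fell (Ccnd2, Batf, Bcl2a1d and Bcl2a1b), with a median of -0.23. In the survival list 3 of 18 fell, the Bcl2a1 copies alone, with a median of -0.13.

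Growth genes were lower as a median but hardly called. In the ribosome biogenesis list 0 of 34 genes passed limma's test, and the median log2 change was -0.30. At an unadjusted p below 0.05, 24 were lower and 0 higher, against 5.43% and 2.68% of all genes. Gar1, a core protein of the H/ACA ribonucleoproteins, had 40.5, 33.9 and 36.0 FPKM in Fraction 3, 60.3 and 53.4 FPKM in Fraction 2 and 45.4, 46.5 and 46.7 FPKM in LZ (log2 change -0.33, limma adjusted p = 0.131). Mybbp1a, a nucleolar Myb-binding protein, had 65.1, 67.2 and 57.1 FPKM in Fraction 3, 110.2 and 103 FPKM in Fraction 2 and 91.7, 79.9 and 74.9 FPKM in LZ (log2 change -0.37, limma adjusted p = 0.180). In these and in Ncl, nucleolin, with 97.0, 97.3 and 86.1 FPKM in Fraction 3 and 123, 127 and 114 FPKM in LZ, every Fraction 3 library lay below every LZ library. That was true of 8.18% of all genes. In the list of Myc-linked growth and amino acid uptake 1 of 24 genes fell, Ccnd2, and the median was -0.20. At an unadjusted p below 0.05, 12 were lower and 1 higher, against the same 5.43% and 2.68%. This list shares members with others, such as Ncl with ribosome biogenesis and Shmt1 with the one-carbon list below. It also shares Ldha with the mTORC1-associated and glycolysis lists. The growth lists are therefore not separate observations.

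In the one-carbon and nucleotide synthesis list 8 of 25 genes were lower and 0 higher at an unadjusted p below 0.05. The shares over all genes were 5.43% and 2.68%. The median log2 change of the list was -0.18, and 0 of the 25 were called. Shmt1, the cytosolic serine hydroxymethyltransferase, came closest, with 13.3, 10.8 and 9.89 FPKM in Fraction 3, 30.4 and 30.5 FPKM in Fraction 2 and 20.6, 18.8 and 17.6 FPKM in LZ (log2 change -0.71 ± 0.14, SE, limma adjusted p = 0.0920). Atic, of purine synthesis, had 46.4, 47.1 and 43.8 FPKM in Fraction 3 and 58.8, 55.8 and 52.9 FPKM in LZ (limma adjusted p = 0.458). Both had no overlap between Fraction 3 and LZ, as had 15.1% of all genes, and their highest values in Fraction 2. The mTORC1-associated list had 0 of 32 called and a median of -0.16. At an unadjusted p below 0.05, 10 were lower and 0 higher, against the same 5.43% and 2.68%. The chaperonin subunit Cct3 stood at log2 -0.26 (limma adjusted p = 0.199) and the co-chaperonin Hspe1 at -0.32 (0.289). In the glycolysis list 0 of 21 were called and the median was -0.077, and Ldha, lactate dehydrogenase A, stood at log2 -0.25 (limma adjusted p = 0.425). In the list of cytosolic ribosomal proteins 0 of 50 were called, 48 had a log2 change below 0 against 51.1% of all genes, and the median was -0.084. Under quantile normalization 28 of the 50 were below 0 and the median was -0.00498. Under median-ratio scaling 46 were below 0 and the median was -0.0714, so the shift of this list depends on which scaling is used. Rps2, of the small subunit, had the log2 change -0.23 (limma adjusted p = 0.438).

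Germinal centre and division genes lay slightly the other way, with no call. In the germinal centre identity list 0 of 23 genes passed, and the median was 0.12. At an unadjusted p below 0.05, 4 were higher and 0 lower, against 2.68% and 5.43% of all genes. A log2 change above 0 was found in 22, against 48.6% of all genes. Bach2, a repressor that restrains plasma cell differentiation, had 44.9, 50.2 and 53.1 FPKM in Fraction 3, 28.2 and 26.4 FPKM in Fraction 2 and 36.5, 38.5 and 42.5 FPKM in LZ (log2 change 0.33, limma adjusted p = 0.473). Gm600, the germinal centre GTPase, had 108, 118 and 125 FPKM in Fraction 3, 65.7 and 62.4 FPKM in Fraction 2 and 86.3, 94.7 and 104 FPKM in LZ (log2 change 0.30, limma adjusted p = 0.255). For both genes LZ again lay between Fraction 3 and Fraction 2, here with Fraction 3 highest. In the dark zone list 0 of 15 genes were called, with a median of 0.14. That list shares members with the germinal centre identity list (such as Mybl1) and with the mitosis (Ccnb1) and S phase (Lig1) lists below.

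The mitosis list had 0 of 36 genes called, 33 with a log2 change above 0 and a median of 0.12, and the S phase and replication list 0 of 40, 36 above 0 and a median of 0.088. Over all genes 48.6% were above 0. Cdc25c, the phosphatase that starts mitosis, had 8.34, 7.13 and 6.86 FPKM in Fraction 3, 9.16 and 9.91 FPKM in Fraction 2 and 4.39, 5.90 and 5.56 FPKM in LZ (limma adjusted p = 0.473). Lig1, the DNA ligase of replication, had 87.2, 87.0 and 79.0 FPKM in Fraction 3 and 75.1, 77.9 and 75.6 FPKM in LZ (limma adjusted p = 0.649). Unlike Bach2, these genes were highest in Fraction 2 and lowest in LZ by group mean. In the BCR pathway list 0 of 30 were called, 26 were above 0 and the median was 0.069, with the kinase Btk at log2 0.15 (limma adjusted p = 0.663). The cholesterol biosynthesis list had 0 of 24 called and a median of 0.11, with Hmgcs1, the synthase that begins the pathway, at log2 0.25 (limma adjusted p = 0.663).

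**Figure D4:**
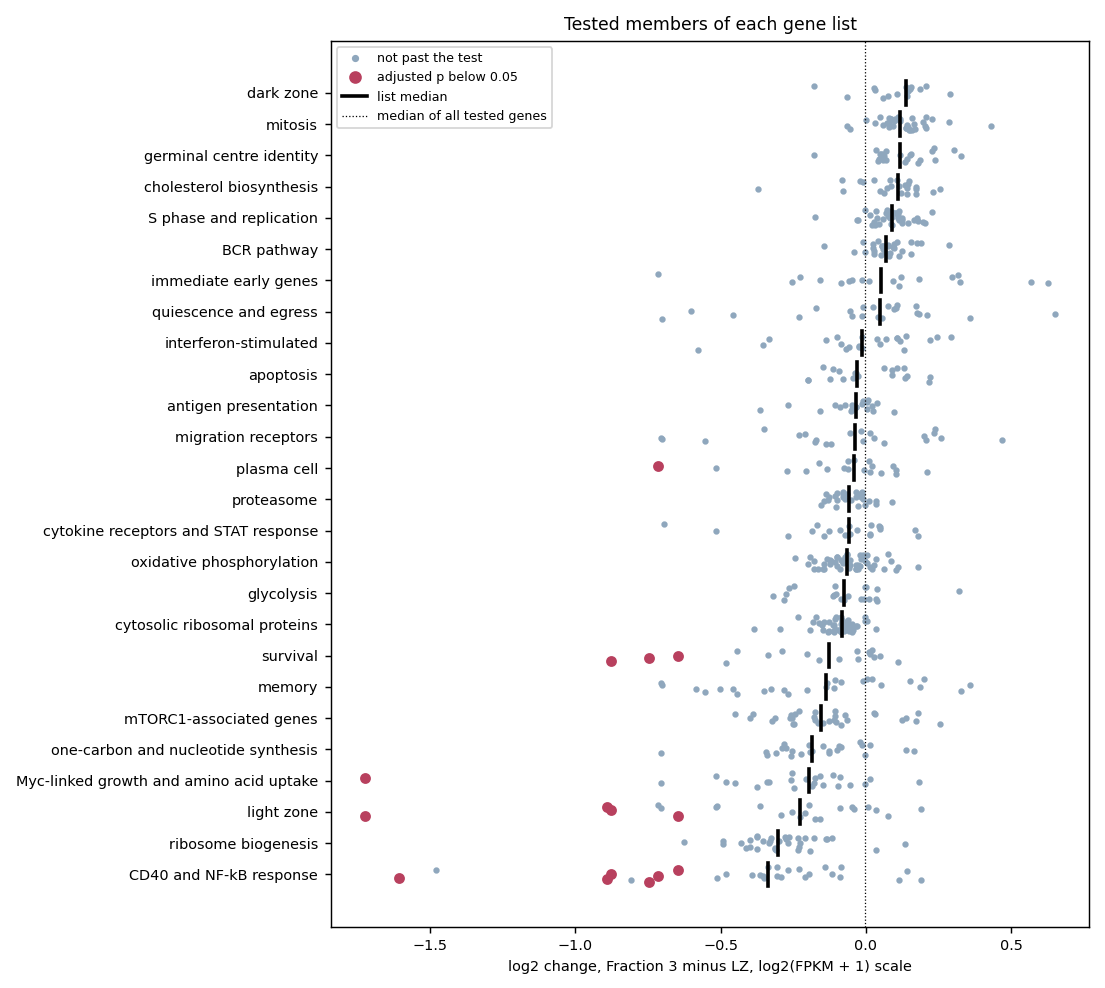
Log2 change of Fraction 3 minus LZ for each tested member of 26 gene lists, sorted by their medians (black bars), with members past adjusted p 0.05 in red and the median of all tested genes as a dotted line. The CD40 and NF-kB response list stands lowest with a median of -0.34 and 6 red points, the Bcl2a1 copies among them, and dark zone highest at 0.14 with none.

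Of the genes reported, 0 of 26 were called in the memory list (median -0.14), 0 of 22 in the quiescence and egress list (median 0.048) and 0 of 22 in the migration list (median -0.036), while Irf4 was the single call in the plasma cell list (1 of 19, median -0.042). Prdm1, the plasma cell repressor Blimp-1, had 0.0897, 0.0616 and 0 FPKM in Fraction 3 and 0.695, 0.772 and 0.127 FPKM in LZ, values too low to read as a level (limma adjusted p = 0.422). Immediate early genes had 0 of 18 called and a median of 0.051. Egr2, a zinc finger factor induced by receptor signals, had 1.63, 2.61 and 1.82 FPKM in Fraction 3 and 5.76, 3.26 and 3.12 FPKM in LZ (limma adjusted p = 0.427), while Fos, of the AP-1 family, had 26.3, 24.5 and 30.0 FPKM in Fraction 3 and 15.3, 14.1 and 26.0 FPKM in LZ (limma adjusted p = 0.599). The list therefore held members on both sides of 0. The lists of oxidative phosphorylation (0 of 53), proteasome (0 of 28), antigen presentation (0 of 20), apoptosis (0 of 20), interferon-stimulated genes (0 of 23) and cytokine receptors (0 of 21) had medians between -0.067 and -0.012. The medians of immediate early, antigen presentation, apoptosis and interferon-stimulated genes changed sign under some alternative settings. Socs3, a feedback inhibitor of cytokine signalling, was at 1.73, 1.11 and 1.02 FPKM in Fraction 3 and 3.47, 2.63 and 2.07 FPKM in LZ (limma adjusted p = 0.272).

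The CD69-high gate was set against both in the same model. Between Fraction 2 and LZ limma called 493 genes (4.38%), of which 241 (2.14%) were higher and 252 (2.24%) lower in Fraction 2, a split that was 271 and 493 under quantile normalization. In the comparison of Fraction 3 with Fraction 2 it called 1760 (15.6%), of which 727 (6.45%) were higher and 1033 (9.17%) lower in the CD69-low gate, a split that was 1041 and 866 under quantile normalization and 1002 and 1010 under median-ratio scaling. These comparisons share libraries with that of Fraction 3 and LZ, so they are not independent of it, and group sizes differ. The first count was 8 without LZ library 3, 10 and 6 without Fraction 2 library 1 and 2, and 254 and 297 without LZ library 1 and 2. The second was 710 and 660 without Fraction 2 library 1 and 2 and 950 without Fraction 3 library 3. Of the 10 genes described above that fell, leaving out Pml and Snora52, both Fraction 2 libraries exceeded all 3 LZ libraries in 8. The exceptions were Irf4 and Plscr1, and with the Bcl2a1 copies counted as 1 gene, this held for 6 of 8. Pml and Snora52 did not show this order either, with Fraction 2 at 0.527 and 0.737 FPKM for Pml and 86.2 and 18.8 FPKM for Snora52. Over all genes, with none left out, the share was 24.5%. The genes were picked for Fraction 3 below LZ, and LZ also takes in cells of the Fraction 2 type. The count is therefore a description and no separate support.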

How the data were processed

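Values were deposited FPKM per gene, made by the authors with TopHat2 2.0.8 and Cufflinks 2.1.1 on mm9, per the submitters' processing notes. The NEBNext Ultra kit, per the labels' protocols, does not mark strand. A single unnamed row was dropped. FPKM are not counts, so limma 3.58.1 in R 4.3.3 fitted log2(FPKM + 1) in all 16 libraries as 6 group means (10 residual degrees of freedom), with a variance trend and equal weights, and p-values were adjusted by Benjamini-Hochberg over 11266 genes. The log2(FPKM + 1) scale understates changes of low genes. The fit was tried on simulated data with independent normal noise at the fitted spread. For Fraction 3 against LZ it recovered 52.5% of 200 changes of log2 0.5 and 92.5% of 200 changes of log2 1. Changes were placed only in genes above a floor. The simulation therefore cannot show how calls depend on single libraries or behave near 0 FPKM.

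Named genes were up to 10 in each direction with the largest changes, no overlap and at least 5 FPKM in the higher gate, called genes first, then up to 4 members of each list, gate genes and markers. Pml and Rrp15, both called, and Klf2, Rplp2, S100a10 and Bhlhe41 fell outside this rule and were chosen after their values were seen. The members and lists were chosen with earlier results of these data known. Promoters and exon overlaps come from RefSeq GRCm38.p6 and the GRCm38 annotation, used for names and sequences only. The alternatives tried were scaling by quantiles or by median ratios, a pseudocount of 0.1, other filters, a replicate block, array weights, a fit to the compared groups alone and each library left out. Some genes, 1 of the 14 called among them, are not reported here and were left out of the gene lists and figures, though not of the fit.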

Additional observations from a re-analysis of the deposited data

How the results depend on the processing

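The count of 14 genes between Fraction 3 and LZ was 8 with no filter on low values, 4 (2 higher, 2 lower) in a fit to the 2 groups alone and 4 to 18 when a library was left out. It was 13 to 15 under median-ratio scaling, quantile normalization, a pseudocount of 0.1, a filter of 5 FPKM and array weights, and 14 with the filter applied to the 6 libraries, an alternative chosen after seeing the data. Of the named genes, 13 passed in the fit as reported, 7 with no filter, 2 in the 2 groups alone and 3 to 12 with a library left out. For Fraction 2 against LZ the count of 493 was 764 (271 higher, 493 lower) under quantile normalization, 772 (344 higher, 428 lower) under median-ratio scaling, 217 with no filter, 784 with array weights, 10 in the 2 groups alone and 6 to 297 with a library left out. For Fraction 3 against Fraction 2 the count of 1760 (727 higher, 1033 lower) was 1108 in the 2 groups alone and 660 to 1411 with a library left out, and its split was 1041 higher and 866 lower under quantile normalization and 1002 and 1010 under median-ratio scaling. The cause of these shifts was not tested, beyond the fewer libraries that the smaller fits hold. A lone library left in a gate is assumed to vary like the others.

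Same-numbered libraries of Fraction 3 and LZ did not deviate together (correlations of -0.046, -0.040 and 0.021), and not every library correlated best with its own number. These correlations cover all tested genes, noisy small RNAs included, so they cannot show whether the numbers mark a shared pool or day. With the replicate block the count was 15, all lower, and 3 of the calls reported here were lost. Among the genes whose log2 change or adjusted p is given for Fraction 3 against LZ, those that changed sign, none of them called, were Cd38 (0.0091 without LZ library 2, from -0.20 upward with a library left out), Cd86 (-0.0026 with array weights, -0.017 without LZ library 1, -0.016 without LZ library 2, and -0.070 to 0.060 with a library left out) and Lck (0.038 without LZ library 1, and -0.14 to 0.11 with a library left out). The medians of all gene lists kept their sign under every alternative except antigen presentation, apoptosis, immediate early and interferon-stimulated genes, though that of cytosolic ribosomal proteins came to -0.00498 under quantile normalization. Scaling moved the median of all genes to at most 0.012. With 3 libraries a gate and unknown absolute depth, a gene that was not called may still differ between the gates.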
